A study of Mus musculus with 2 samples.

Results

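The genes described here were the 55 mouse genes for Wnt ligands, their receptors and co-receptors, the proteins that make Wnts fit for secretion, the R-spondins, and the secreted or membrane inhibitors of Wnt signaling. They were taken by name, from a list, out of the 37074 gene names on the array, by a rule that uses no measured value, although the list was drawn up with earlier results of these data known. All 55 were on the array, with 83 probes, and 70 of these probes, covering all 55 genes, matched the same symbol by accession in the RefSeq gene table. The others, among them the second probes of Wnt5a and Fzd4 and both Apcdd1 probes that gave a signal, carry the name that the array files give them.

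The cells were mDE6, a line of mouse odontogenic epithelium, in other words cells of the dental epithelium kept in culture. RNA was taken at 6 h from 1 culture given vehicle (control; the label names DMSO, with a percentage that is not printed clearly, and the methods call these cells untreated) and from 1 culture given CHIR99021, an inhibitor of the kinase GSK-3 that thereby activates the β-catenin pathway. The label gives the dose as 5 mM, whereas the methods give 5 in micromolar. Each culture was read on 1 single-color (Cy3) Agilent array, and both arrays shared a slide. Array position and treatment therefore cannot be told apart, no difference has a replicate check, and the number of arrays limits the precision.

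Wnts are secreted, lipid-carrying proteins. Porcn, an enzyme of the endoplasmic reticulum, attaches the lipid and Wls carries the Wnt to the cell surface, where it binds a Frizzled receptor together with a co-receptor. With Lrp5 or Lrp6 the signal stops GSK-3 from marking β-catenin for destruction, and β-catenin then acts on target genes with factors of the TCF/LEF family. With Ror1, Ror2 or Ryk it can run through routes that do not need β-catenin. Secreted proteins such as the Sfrp, Dkk and Wif1 families hold Wnts or their co-receptors back, and R-spondins raise the number of Frizzled and Lrp molecules at the surface. In the tooth germ, Wnt signaling between epithelium and mesenchyme controls where teeth form and how their cusps are set.

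The level of a gene is given as the spot intensity after background subtraction, in arbitrary units. It serves to compare the same probe on the 2 arrays, not different genes, because probes differ in how strongly they bind. Each ratio is CHIR99021 over control after division by the 75th percentile of all spots, 486.7 for control and 469.2 for CHIR99021. Of 59305 spots on each array, 49.8% gave a signal well above background in control cells and 48.3% did so with CHIR99021. A gene is said below to have a signal where at least 1 probe met this criterion on at least 1 array. Spots of 220 probes that were each printed 10 times differed by a median SD of 0.03 in log2 ratio, and probes of the same gene by a median SD of 0.11 over 5688 genes; these are errors within the pair of arrays and not between cultures. The targets of the pathway used as a check were higher. Lef1, a DNA-binding partner of β-catenin, read 239 in control cells and 690.5 after CHIR99021 (log2 ratio 1.58). Axin2, a feedback inhibitor, was at least 1.66-fold higher, and Nkd1, a further feedback inhibitor, was at least 25.8-fold higher at an uneven spot. Their spots lay in rows 294, 312 and 368 of 384, all beyond the middle row of the array. Of 17 epithelial markers, 7 had a signal in control cells, among them Trp63 at 2306 and Perp at 1682, whereas Cdh1 and Epcam, which define epithelia, had none on either array. Over the 8 epithelial markers with a signal on at least 1 array the median log2 ratio was 0.04, and 1 was called higher, Krt5, at 5.51 in control cells and 165 after CHIR99021 (at least 7.24-fold higher, uneven spot in row 379). Of 16 mesenchymal markers 15 had one, among them Vim at 52302 and Col1a1 at 122887, and their median log2 ratio was -0.14, with Twist1 (ratio 1.55) and Msx1 (1.54) called higher and Pax9 (0.659) lower. Of 8 endothelial, immune and glial markers 4 had one, among them Ptprc at 1709 and Cd68 at 579, whereas Cdh5, Kdr, Adgre1 and Sox10 had none on either array. The part that cells of another kind had in the Wnt gene values was not tested, and in RNA from whole cultures fewer cells of a type and less RNA per cell cannot be told apart.

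Of the 55 genes, 36 had a signal in control cells. These were 10 of 19 Wnts, 9 of 10 Frizzled receptors, all 5 co-receptors, both secretion factors, 3 of 4 R-spondins and 7 of 15 inhibitors. A further gene, the inhibitor Dkk4, had a signal with CHIR99021 alone, so that 37 genes gave a ratio. The other 18 were not well above background at any probe: Wnt2, Wnt2b, Wnt3, Wnt3a, Wnt7a, Wnt8a, Wnt8b, Wnt9b, Wnt16, Fzd10, Sfrp4, Sfrp5, Dkk1, Dkk2, Kremen2, Sost, Sostdc1 and Rspo4. Of all 37074 gene names on the array, 18114 had a signal in control cells. The 18 Wnt genes without a signal include Wnt3a, the ligand most used to activate β-catenin in culture, and Dkk1, the best known secreted inhibitor of Lrp5 and Lrp6. Their probes read 5.57 and 5.00 on the control array and 6.22 and 5.49 on the CHIR99021 array, below the lowest well-measured signals of 23.7 and 26.3.

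**Figure D1:**
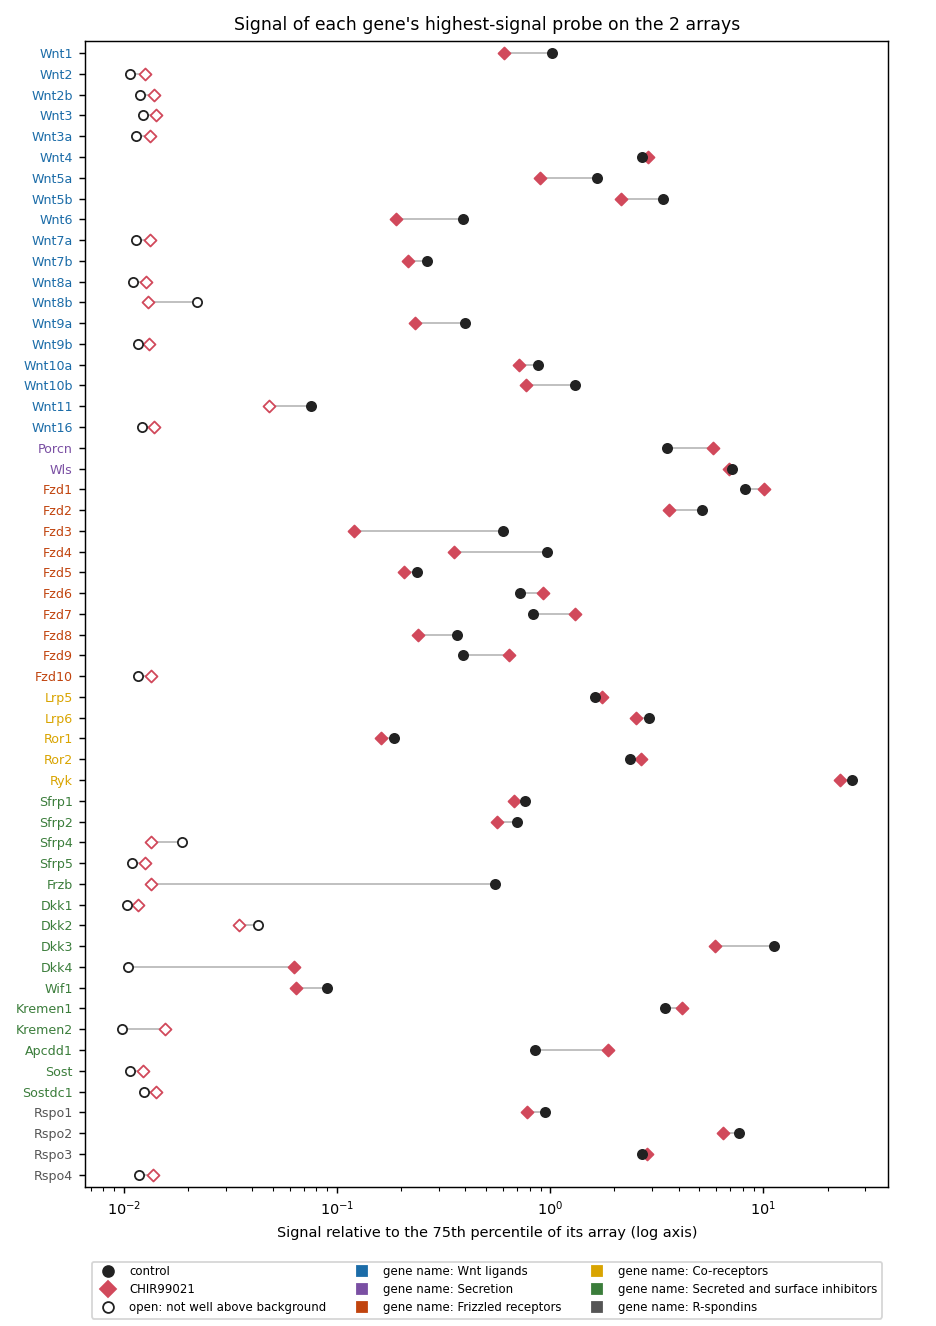
Signal of each of the 55 genes on the control array (black circles) and the CHIR99021 array (red diamonds), divided by the 75th percentile of its array, on a log axis, with the gene's best measured probe shown and open symbols for signals not well above background. Positions are to be compared along a line, not between genes. Most filled red symbols of the ligands lie to the left of the black ones, and those of Apcdd1, Porcn, Fzd7 and Fzd9 lie to the right.

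A gene was called lower at a ratio of at most 0.66 and higher at a ratio of at least 1.5. The lower limit is the ratio part of the rule in the study's methods, which join it to a Z-score that they do not define. Of the 37 genes, 12 were lower, 5 were higher and 20 lay between. Wnt11, Frzb and Dkk4 were well above background on 1 array alone and were called from the computed ratio, and the limits given for them below pass for Frzb only. Among all 18837 genes measured, 9.67% were lower and 8.05% were higher. Counting only genes well above background on both arrays, 10 of 34 Wnt genes were lower and 4 were higher, against 5.76% and 5.06% of 16886 genes. With a Z-score limit of 2.0 in size joined to the ratio, using a Z-score built here that sets each log2 ratio against the mean and SD of the 500 probes nearest in signal, 6 Wnt genes were lower and 1 was higher, against 3.22% and 2.63% of all genes. The median log2 ratio of the 37 genes was -0.25, that of all genes was 0.02, and 25 of the 37 ratios were below 1. The ratios next to the limits were 0.659 for Fzd8 and 0.701 for Fzd2 on either side of the lower one, and 1.57 for Fzd7 and 1.28 for Fzd6 on either side of the higher one.

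**Figure D2:**
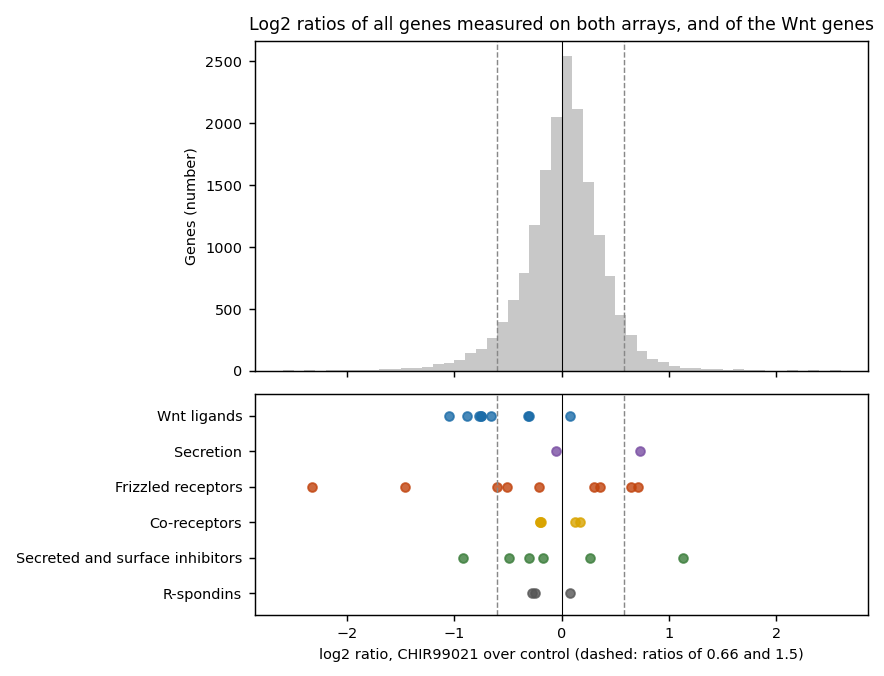
Log2 ratio (CHIR99021 over control) of the 16886 genes well above background on both arrays, as a histogram with the number of genes on the vertical axis (the end bars hold all values beyond them), and below it the 34 Wnt genes by role, 1 point per gene. Dashed lines are the ratios of 0.66 and 1.5. The ligands lie mostly left of 0, from -1.05 to 0.08, whereas the Frizzled receptors spread on either side of it.

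The ligands stood on the low side. Of the 10 Wnts with a signal, 7 were lower, none was higher and 9 had a ratio below 1, with a median log2 ratio of -0.70. All were lower except Wnt4, Wnt7b and Wnt10a. Only Wnt5a and Wnt5b also passed the limit on the Z-score. Counting only genes well above background on both arrays, 6 of 9 ligands were lower, against 5.76% of all such genes. Wnt6, a ligand of many surface epithelia, read 189.9 in control cells and 88.7 after CHIR99021 (ratio 0.484, log2 ratio -1.05).

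Wnt5a, a ligand known above all for signaling without β-catenin and for its part in tooth and limb outgrowth, read 807 in control cells and 422 after CHIR99021 at its brightest probe (ratio 0.543, log2 ratio -0.88, Z-score -2.23). Its second probe, which begins 3763 bases away, read 279 and 159 (ratio 0.591). The remaining Wnt5a probe had no signal. The first 30 bases of both probes that gave a signal are shown because they report the same gene from stretches of sequence that do not overlap, at chr14:29336664-29336723 and chr14:29340427-29340486 (mm9, + strand). Neither the exon nor the untranslated region in which a probe lies was read here.
Wnt5a first probe: cctaacccagaggttaccagcctggttttg
Wnt5a second probe: aaatgccttgttaacgaacttcatgaagca

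Wnt5b, its closest relative, read 1646 and 1007 at the first probe (ratio 0.635, log2 ratio -0.66, Z-score -2.14). The second probe, 462 bases from it, read 395 and 229 (ratio 0.603). Wnt10b, known as a β-catenin ligand of dental epithelium, hair and fat, read 631 in control cells and 362 after CHIR99021 (ratio 0.595), and its second probe read 106 and 50.2 (ratio 0.492, log2 ratio -1.02). In each of these 3 genes, including Wnt5a, both probes with a signal on both arrays were past the lower limit.

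Wnt1, the founding member of the family, read 498 in control cells and 285 after CHIR99021 (ratio 0.593) at its single probe, in row 354 of 384, where 3 spots of other probes within 3 rows and columns were lost, that is, well above background in control cells alone and over 4-fold lower after CHIR99021. Wnt9a read 194 and 109 (ratio 0.585). Wnt11, a ligand of routes outside β-catenin, read 36.7 in control cells and 22.4, not well above background, after CHIR99021. Its computed ratio was 0.634, but the measurement allows only the statement that it was at least 1.35-fold lower, which does not reach the limit.

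The other 3 ligands lay between the limits. Wnt4 read 1316 and 1342 (ratio 1.06), and was the single ligand with a ratio above 1. Wnt10a, whose human gene is the one most often altered in missing teeth, read 428 and 333 (ratio 0.808). Wnt7b, a ligand of oral epithelium, read 128 and 100.4 (ratio 0.811). Its second probe read 40.8 and 30.8 and had a signal in control cells alone.

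Of the 2 secretion factors, 1 was called higher. Porcn read 1711 in control cells and 2729 after CHIR99021 (ratio 1.65, log2 ratio 0.73, Z-score 1.91), at a spot in row 367. Wls, the carrier that acts after Porcn, lay near 1 at both probes, which read 3482 and 3232 (ratio 0.963) and 3028 and 3128 (ratio 1.07).

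The Frizzled receptors had values on either side. Of the 9 with a signal, 3 were lower, 2 were higher and 4 lay between, with a median log2 ratio of -0.21. Fzd4, a receptor that also answers the non-Wnt ligand Norrin, was the lowest of those measured at more than 1 probe. It read 470.3 in control cells and 165 after CHIR99021 (ratio 0.364, log2 ratio -1.46, Z-score -3.44) at the first probe, and 404 and 152 (ratio 0.390, log2 ratio -1.36, Z-score -2.84) at the second, which begins 3941 bases away. The probes lie in rows 137 and 329, in the earlier and the later part of the array. Their first 30 bases are shown as the evidence for this value from separate stretches, at chr7:96557478-96557537 and chr7:96561419-96561478 (mm9, + strand).
Fzd4 first probe: acacacgtaaggtatccagtggatttctct
Fzd4 second probe: aacctggggatattgagatgacaatgtaga

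Fzd3, a receptor best known from axon guidance, had the lowest ratio of the receptors, 292 in control cells and 56.1 after CHIR99021 (ratio 0.199, log2 ratio -2.33, Z-score -4.15). It has a single probe, in row 366, and the spot on the control array was uneven, with a pixel SD of 0.335 of its mean, above the limit of 0.261, the 99th percentile of well-measured spots in the earlier rows. Within 3 rows and columns of it, 2 spots of other probes were lost, in the sense given for Wnt1. The part of the uneven spot in the ratio was not tested. With the normexp background correction the ratio was 0.358. Fzd8 read 177 and 113 (ratio 0.659), nearest to the lower limit of all genes called.

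Fzd7 and Fzd9 were the 2 receptors called higher. Fzd7, a receptor that serves β-catenin signaling in many stem cells, read 403 in control cells and 609 after CHIR99021 (ratio 1.57, log2 ratio 0.65), at a spot in row 356 with 4 lost spots near it. Fzd9 read 190.0 and 299 (ratio 1.63, log2 ratio 0.71) in row 194. Neither passed the limit on the Z-score, at 1.67 and 1.61. The remaining receptors were Fzd1 at 3987 and 4720 (ratio 1.23), Fzd2 at 2505 and 1694 (ratio 0.701), Fzd5 at 116 and 96.4 (ratio 0.864) and Fzd6 at 349.7 and 433 (ratio 1.28). The second Fzd5 probe read 42.3 in control cells and 27.5, not well above background, after CHIR99021, at least 1.48-fold lower.

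The co-receptors lay near 1. None of the 5 passed a limit, and their ratios ran from 0.868 to 1.13. Lrp6, the main co-receptor of the β-catenin pathway, read 1410 in control cells and 1183 after CHIR99021 (ratio 0.870), and its partner Lrp5 read 787 and 823 (ratio 1.09). The Wnt5a receptor Ror2 read 1153 and 1254 (ratio 1.13), Ror1 read 89.5 and 74.9 (ratio 0.868), and the kinase-like receptor Ryk read 12666 and 10711 (ratio 0.877). Second probes of Lrp6 and Ryk gave ratios of 0.981 and 0.978. Thus Wnt5a was lower at both probes, whereas its receptor Ror2 was not past either limit.

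Among the inhibitors, Apcdd1 was called higher and Dkk3 lower, each at 2 probes that gave a signal in both conditions. Apcdd1, a membrane protein that binds Wnts and Lrp5 and is itself a known target of the β-catenin pathway, read 415 in control cells and 877 after CHIR99021 (ratio 2.19, log2 ratio 1.13, Z-score 3.13). A second probe read 379 and 821 (ratio 2.25, Z-score 3.27). The probes share 10 bases and lie in rows 23 and 2, so they are not fully separate readings of the mRNA, although their spots are apart. Neither was matched by accession in the RefSeq gene table, and the remaining Apcdd1 probe, which was, read 5.11 and 15.0 and was not well above background. Apcdd1 was the only Wnt gene that was higher with the Z-score as well.

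Dkk3, a member of the Dickkopf family whose effect on Wnt signaling is debated, read 5455 in control cells and 2783 after CHIR99021 (ratio 0.529, log2 ratio -0.92, Z-score -3.06). The second probe, 1272 bases away, read 1193 and 683 (ratio 0.594, Z-score -2.23). The remaining Dkk3 probe read 36.7 in control cells and 14.7, not well above background, after CHIR99021, at least 1.34-fold lower. The first 30 bases of the first 2 are given as they show the lower value at separate positions, chr7:119259556-119259615 and chr7:119260828-119260887 (mm9, - strand).
Dkk3 first probe: gcctgtaaatcgcatctgaagataccacag
Dkk3 second probe: gaatgaaatttgcaaagtcgcttagcaaca

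Frzb and Dkk4 rested on 1 array each. Frzb, a secreted Frizzled-like protein that holds Wnts, read 267 in control cells and 6.29, not well above background, after CHIR99021, at least 9.78-fold lower. With the normexp correction, which adds an offset to each signal, its ratio was 0.207. The control spot, in row 336, was uneven (pixel SD 0.273 of the mean), 3 spots near it were lost, and the other Frzb probe, in row 125, had no signal (5.10 and 5.64). Dkk4, a Dickkopf inhibitor and a known target of the β-catenin pathway, read 5.09 in control cells and 29.6 after CHIR99021, at least 1.30-fold higher. Its computed ratio was 6.03, past the limit, but the bound is not. The other Dkk4 probe read 4.69 and 5.27 and had no signal.

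The other 4 inhibitors with a signal lay between the limits. Sfrp1 read 370.3 and 318 (ratio 0.890), and Sfrp2 read 338 and 265 (ratio 0.813). Wif1 read 43.8 and 30.1 (ratio 0.713), close to background and with an uneven spot on the CHIR99021 array. Kremen1, a receptor for Dkk proteins, read 1691 and 1959 (ratio 1.20). Its other probes gave ratios of 1.41 and 1.22, whereas the remaining probe read 30.8 in control cells and 16.4, not well above background, after CHIR99021, at least 1.13-fold lower. As a group, 2 of the 8 inhibitors with a signal were lower and 2 were higher, with a median log2 ratio of -0.23.

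The R-spondins did not pass a limit. Rspo1 read 459 and 363 (ratio 0.821), Rspo2 read 3754 and 3036 (ratio 0.839), and Rspo3 read 1311 and 1331 (ratio 1.05), with a ratio of 1.28 at a second Rspo3 probe.

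**Figure D3:**
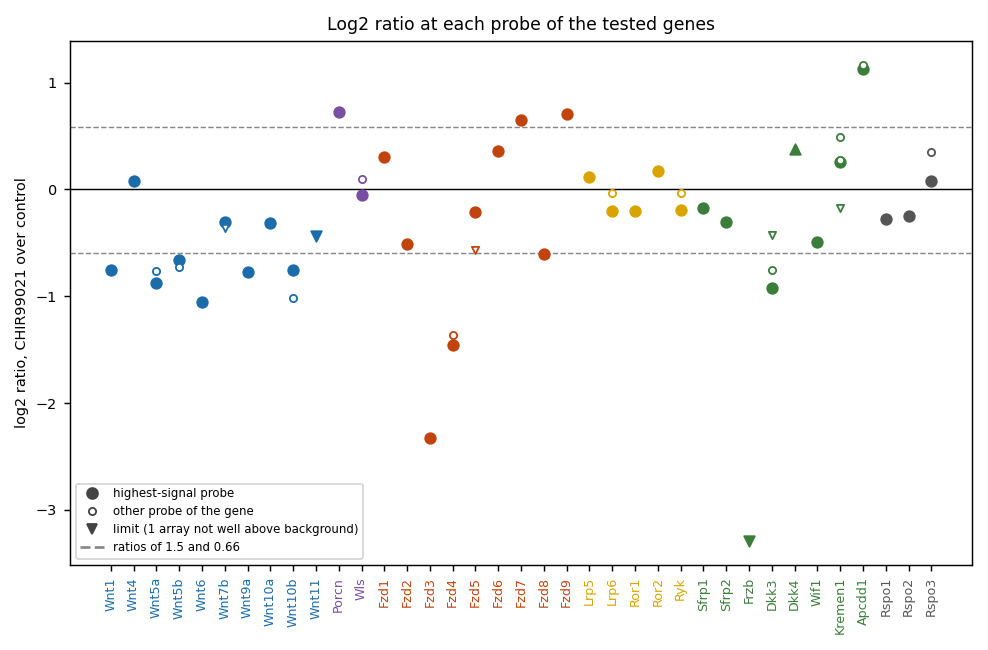
Log2 ratio (CHIR99021 over control) at every probe well above background on at least 1 array, for the 37 genes with a signal, colored by role. Filled symbols are the probe with the highest signal, small open symbols the other probes, triangles the limit where 1 array was not well above background, and dashed lines the ratios of 1.5 and 0.66. The open and filled circles of Wnt5a, Wnt5b, Wnt10b, Fzd4 and Dkk3 all lie below the lower line, and both circles of Apcdd1 above the upper one.

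Genes with several probes gave a check within the arrays. Of 11 genes with at least 2 probes well above background on both arrays, all 11 had the same call at each, and 10 had all ratios on the same side of 1, Wls being the other. Wnt5a, Wnt11, Fzd8, Lrp5, Ror1, Ryk, Frzb, Dkk4, Apcdd1 and Rspo2 also had 1 probe each that was not well above background, beside those described. The range between probes ran from 0.03 in log2 ratio for Apcdd1 to 0.28 for Rspo3. Over all probes measured, 9.68% were lower and 8.24% were higher.

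Position on the array was recorded for each spot because very large differences lay mostly in its later rows. Of all 608 lost spots, 92.6% were beyond row 192, as were 93.6% of 574 spots gained, that is, well above background after CHIR99021 alone and over 4-fold higher. Among probes of called genes, such spots also lay within 3 rows and columns of the second Wnt5b probe (2 lost, 5 gained) and of Wnt1 (1 gained). The same held for Fzd9 (1 lost, 2 gained), and for Porcn, Dkk4 and the second Wnt5a probe (2 lost each). It held too for the first Dkk3 probe (1 lost) and the second Fzd4 probe (1 gained). Some genes between the limits had them as well, such as Fzd1 and Fzd2 (2 lost each). Of the 37 Wnt genes, 17 lay in the earlier rows, where 5 were lower (Wnt5b, Wnt6, Wnt10b, Fzd4 and Dkk3) and 1 was higher (Apcdd1), against 7.19% and 4.97% of all genes there. In the later rows lay 20, of which 7 were lower and 4 were higher, against 12.0% and 10.9%. The 3 targets used as a check, Lef1, Axin2 and Nkd1, also lay in the later rows. The part of position in their values was not tested. The share of Wnt genes in the later rows was 54.1%, and that of all genes was 51.7%. The part of position in the calls of the later rows was not tested.

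**Figure D4:**
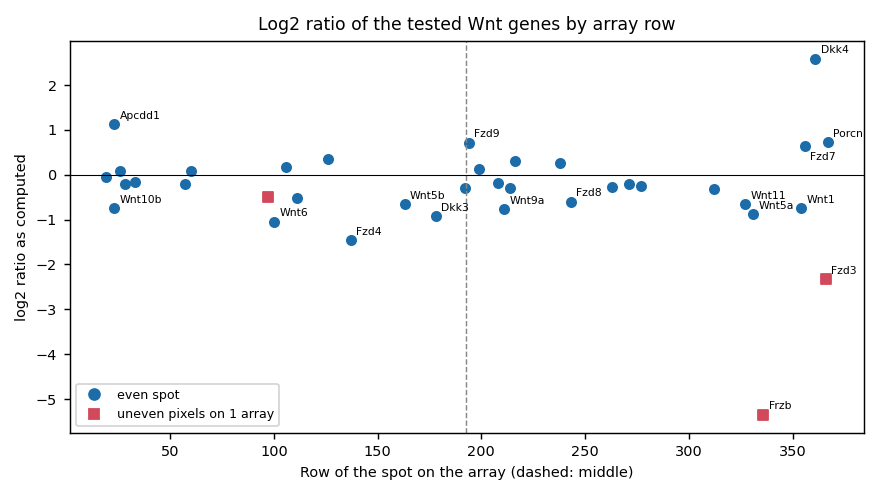
Log2 ratio as computed (CHIR99021 over control) of the 37 genes against the row of the spot on the array, with red squares for genes whose spot was uneven on 1 array and a dashed line at the middle. Names mark ratios far from 1. Frzb, Fzd3 and Dkk4, at -5.35, -2.33 and 2.59, lie in the later rows, whereas Apcdd1, Fzd4 and Dkk3 lie in the earlier ones.

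The other genes of the pathway were read from lists. Of 30 other surface and secreted genes, 22 had a signal, 4 were higher and 4 were lower, and their median log2 ratio was -0.08. The higher ones were Rnf43, which read 69.3 and 167 (ratio 2.49), and Znrf3, 418 and 640.2 (ratio 1.59), both ubiquitin ligases that remove Frizzled from the surface, with Celsr1 at 37.5 and 108 (ratio 2.99) and Celsr3, at least 1.64-fold higher, both cadherins of planar cell polarity. The lower ones included Vangl2, also of planar cell polarity, at 129 and 62.9 (ratio 0.506), and Reck, a membrane protein needed for Wnt7 signals, at 293 and 156 (ratio 0.553). The others were Trabd2b, a protease that inactivates Wnts, at 144 and 50.3 (ratio 0.363, uneven spot), and Dkkl1. Dkkl1 was at least 1.34-fold lower, which does not reach the limit. Of the higher and lower ones, Znrf3 and Reck alone lay in the earlier rows. Notum, a secreted enzyme that takes the lipid off Wnts, read 4434 and 5570 (ratio 1.30).

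Of 30 genes that act inside the cell, 29 had a signal, 5 were higher (Axin2, Lef1, Nkd1, Nkd2 and Tcf7) and 2 were lower (Tcf7l1 and Amer1), and their median log2 ratio was 0.09. Nkd2, a Dishevelled-binding inhibitor, read 1886 and 3247 (ratio 1.79). The TCF/LEF factors went in different directions, with Tcf7 at 180.3 and 270.1 (ratio 1.55), Tcf7l1, a factor that mostly represses, at 384 and 179 (ratio 0.484), and Tcf7l2 at 1042 and 1107 (ratio 1.10). Ctnnb1, the gene of β-catenin itself, read 2927 and 2824 (ratio 1.00). The ligands, with 7 of 10 lower against 9.67% of all genes, thus had a lower median than either list. The 7 include Wnt11, whose bound does not reach the limit, and 2 of them passed the limit on the Z-score. No test of the difference in medians is possible with 1 array per condition.

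Promoters of the Wnt genes were searched for the core motif of the TCF/LEF factors, CTTTGNN with A or T at each N, on both strands, in RefSeq windows (GRCm38.p6) from 250 bases before to 50 bases after the gene start. Windows were given for 35 of the 55 genes, and 5 of these genes held a match: Wnt3, Wnt5b, Wnt11, Fzd7 and Dkk1. Counted by window, 5 of the 38 windows of the Wnt genes held one, against 16.9% of all 32851 windows. Counted by gene, 2 of 8 lower genes with a window held a match, Wnt5b (3 windows) and Wnt11 (2 windows). Of 2 higher genes with a window 1 did, Fzd7. The 250 bases before the start are printed for 3 genes: Wnt5b, called lower with a match 71 bases before the start (chr6:119449387-119449636, - strand), Fzd7, called higher with a match 130 bases before it, on the opposite strand (chr1:59481897-59482146, + strand), and Fzd4, called lower with none (chr7:89404116-89404365, + strand). Capitals mark the match, and Wnt5b has 3 windows, of which 1 is shown. A match describes the letters and is not evidence of binding.
Wnt5b: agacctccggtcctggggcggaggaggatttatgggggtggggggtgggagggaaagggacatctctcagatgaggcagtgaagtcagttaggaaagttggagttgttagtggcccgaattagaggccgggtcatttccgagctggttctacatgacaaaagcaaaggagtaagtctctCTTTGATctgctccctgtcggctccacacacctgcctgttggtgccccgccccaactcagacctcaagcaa
Fzd7: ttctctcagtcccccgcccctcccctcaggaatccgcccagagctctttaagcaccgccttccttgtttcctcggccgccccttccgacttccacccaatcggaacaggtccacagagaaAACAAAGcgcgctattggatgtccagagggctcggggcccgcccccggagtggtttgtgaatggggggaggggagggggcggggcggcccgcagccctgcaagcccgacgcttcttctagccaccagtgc
Fzd4: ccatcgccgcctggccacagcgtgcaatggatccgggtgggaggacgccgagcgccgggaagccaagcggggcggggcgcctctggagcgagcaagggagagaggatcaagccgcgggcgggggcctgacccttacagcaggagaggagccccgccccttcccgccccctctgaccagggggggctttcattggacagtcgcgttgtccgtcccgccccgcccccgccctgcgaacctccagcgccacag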

How the data were processed

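The authors amplified total RNA of mDE6 cells, labelled the product with Cy3 and read it on Agilent arrays, whose spots were measured in Feature Extraction (10.7.1.1 in the file headers, 9.5.1.1 in the submitters' processing notes). The methods name a human array, whereas the file headers name mouse build mm9. The deposited intensity of a spot has its background subtracted and is not normalized between arrays. A second deposited table of normalized intensity, whose sorted columns are equal on both arrays, served as an alternative; its method is not given in the sources used here.

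Control spots and outlier spots were left out and spots of a probe were averaged. From these values log2 ratios were computed relative to the 75th percentile of each array in Python 3.11.15 (numpy 2.4.6, pandas 2.3.3); figures were drawn with matplotlib 3.10.9. The 28066 probes with a signal well above background on the control or the CHIR99021 array were kept, and a gene with several took the one with the highest mean signal. Where 1 array was not well above background, the fold is a limit against the higher of the probe's own signal and the lowest well-measured signal of that array; calls used the computed ratio. No statistical test between the conditions was run, as each has 1 array. The calls were also run on simulated log2 ratios with set fold changes added. That simulation changed only probes measured on both arrays and held no effect of position or of uneven spots. It therefore cannot decide on calls in the later rows, at uneven spots or from 1 array. Quantile and cyclic loess normalization and the normexp correction with an offset of 50 used limma 3.58.1 in R 4.3.3. Other alternatives were median, spike-in and no scaling, a percentile over detected probes, other filters and probe rules, a floor, a Z-score, and leaving out uneven spots or later rows.

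Every gene of the list is accounted for, with values for each that had a signal; of the other lists, genes past a limit are named, with further genes for the range. The members and lists were chosen with earlier results of these data known. Coordinates of probes are those of the files, in mm9, and those of promoters are of GRCm38.p6.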

Additional observations from a re-analysis of the deposited data

How the results depend on the processing

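With 1 array per condition there is no replicate to leave out. No paired analysis was possible because a condition holds a single array. Of the 17 genes called, 10 kept their call under every one of 16 alternatives (those other than the Z-score) that gave a value for them, and none changed direction. With the Z-score as well, 6 kept it: Wnt5a, Fzd3, Fzd4, Frzb, Dkk3 and Apcdd1. Fzd3 and Frzb gave no value without uneven spots or in the earlier rows, nor Frzb with probes measured on both arrays, so their calls were not tried there. The calls of Wnt1 and Porcn, also among the 10, were likewise not tried in the earlier rows. The median log2 ratio of the Wnt genes, -0.25, became -0.30 with the percentile taken over detected probes, -0.29 with cyclic loess, -0.29 in the authors' normalized table, -0.31 without scaling, -0.22 with median scaling, -0.19 with spike-in scaling and -0.19 with normexp. It was -0.28 with the mean over probes, -0.30 with the lowest probe of each gene, -0.21 without uneven spots, -0.20 in the earlier rows alone and -0.05 without a filter, where all 55 genes entered, 18 of them at background on both arrays. The shift of all genes was -0.03 without scaling and 0.09 with spike-in scaling.

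The 12 lower genes became 6 with the Z-score and 6 in the earlier rows alone, and the 5 higher genes became 1 with the Z-score, 1 in the earlier rows and 3 with normexp. In the earlier rows alone, 21 genes had a signal, since a gene could be read there at another of its probes; 17 of the 37 had their brightest probe there, and 5 of these were lower. Fzd8, nearest to the limit, lost its call in 6 of the 15 alternatives that gave it a value, at ratios up to 0.747 with normexp, and with the Z-score. Wnt5b (0.664) lost it with spike-in scaling, Wnt9a (0.700), Fzd7 (1.47) and Fzd9 (1.46) with normexp, Wnt11 with spike-in scaling, normexp and the floor, and Dkk4 (1.30) with the floor; beyond the construction of the floor, the cause was not tested. With normexp, which adds an offset of 50 to each signal, the ratio of Frzb went from 0.0244 to 0.207 and that of Fzd3 from 0.199 to 0.358, and the log2 ratio of Dkk4 from 2.59 to 0.62. Fzd4 ran from 0.351 to 0.450 and Apcdd1 from 2.10 to 2.30. The 1 gene between the limits that passed one was Kremen1, at its lowest probe (0.553). Signals near background limit the ratios of Wnt11, Dkk4 and Wif1.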
